A study of Rattus norvegicus with 10 samples.

Results

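The genes described here make up the circadian clock and its first outputs in the fetal rat heart. They were taken from the deposited expression table by symbol and comprised Clock, Npas2, Per2, Per3, Cry1, Cry2, Nr1d1, Nr1d2, Dbp and Tef, 10 of the 18025 genes listed. The hearts were collected from wild-type Sprague-Dawley fetuses at embryonic day 19.5 of control pregnancies (CON group, n = 5) and of hyperglycemic pregnancies (HG group, n = 5). Dams were 3 months old when they entered the study, and after mating they were assigned at random to a group. HG dams then received streptozotocin, a toxin of pancreatic beta cells, by intraperitoneal injection on 3 consecutive days after fasting. CON dams received the citrate buffer alone. Diabetes of HG dams was defined as a non-fasting blood glucose above 16 mM, checked 7 days after injection. This order is that of the methods of the study, whereas its introduction places the hyperglycemia before pregnancy. The litter and sex of each fetus and the hour of collection are not given in the sources used here. Litter mates may therefore be counted among the 5 libraries of a group, and p-values measure only the spread between these libraries. Hearts came from a single embryonic day, and whether both groups were collected at the same hour is not known. A lower level, a shifted phase of a rhythm and a different hour of collection therefore cannot be told apart.

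The molecular clock is a feedback loop of transcription. The activators Clock or Npas2, each paired with Bmal1, bind E-boxes in the promoters of the Per and Cry genes, whose proteins return to the nucleus and repress the activators. A second limb is formed by Nr1d1 and Nr1d2 (REV-ERB alpha and beta), which repress Bmal1 and Clock and are driven through E-boxes themselves. Dbp and Tef are PAR bZIP transcription factors that carry the rhythm to output genes through D-boxes, a site also present in some Per promoters. In the adult heart this clock sets daily rhythms of metabolism and ion channels, whereas in fetal tissues its rhythms are weak or still being established.

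Promoter windows were searched for the sites through which the loop acts. A window of 250 bases before and 50 bases after an annotated start site was matched for 9 of the 10 genes, and none for Cry1 (RefSeq, build GRCr8). The windows shown are those in which a clock site was found in Per2, Tef and Cry2, and the Nr1d1 window with the canonical E-box. Each is written 5′ to 3′ on the strand of the gene, with the matched site in capitals.
Per2 (chr9:99496944-99497243, minus strand): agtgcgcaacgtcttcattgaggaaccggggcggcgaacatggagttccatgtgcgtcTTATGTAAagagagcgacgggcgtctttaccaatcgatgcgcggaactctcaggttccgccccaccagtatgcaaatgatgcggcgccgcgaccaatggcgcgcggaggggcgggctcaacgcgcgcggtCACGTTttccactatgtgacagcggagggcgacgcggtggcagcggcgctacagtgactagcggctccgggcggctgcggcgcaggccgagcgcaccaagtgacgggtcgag
Tef (chr7:115206577-115206876, plus strand): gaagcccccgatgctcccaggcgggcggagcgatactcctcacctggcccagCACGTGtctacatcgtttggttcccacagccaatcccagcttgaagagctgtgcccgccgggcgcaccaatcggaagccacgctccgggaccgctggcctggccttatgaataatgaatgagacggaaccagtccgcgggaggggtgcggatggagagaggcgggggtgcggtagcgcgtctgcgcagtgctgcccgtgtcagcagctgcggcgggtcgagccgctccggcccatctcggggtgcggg
Cry2 (chr3:98860388-98860687, minus strand): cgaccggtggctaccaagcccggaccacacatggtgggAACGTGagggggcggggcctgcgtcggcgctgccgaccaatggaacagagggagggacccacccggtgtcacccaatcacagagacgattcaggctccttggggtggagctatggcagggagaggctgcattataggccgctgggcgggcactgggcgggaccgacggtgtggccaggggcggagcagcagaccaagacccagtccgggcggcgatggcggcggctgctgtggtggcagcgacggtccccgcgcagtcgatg
Nr1d1 (chr10:84229405-84229704, minus strand): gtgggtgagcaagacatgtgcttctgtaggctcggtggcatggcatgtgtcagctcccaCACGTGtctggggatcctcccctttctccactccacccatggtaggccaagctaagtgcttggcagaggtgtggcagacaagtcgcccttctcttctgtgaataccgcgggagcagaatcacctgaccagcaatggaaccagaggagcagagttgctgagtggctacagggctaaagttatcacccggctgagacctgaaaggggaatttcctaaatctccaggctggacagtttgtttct
In Per2 the capitals mark a D-box (TTATGTAA, first base at -192 from the start site) and an E′-box (CACGTT, at -62). In Tef and Nr1d1 they mark an E-box (CACGTG, at -198 and -191), and in Cry2 the E′-box read on the other strand (AACGTG, at -212). A further Nr1d1 window held an E′-box at -174. Both strands were searched. The 9 genes had 11 windows, of which 2 held an E-box, 3 an E′-box and 1 a D-box. The E-box was found in 6.42% of all 33469 rat windows, the E′-box in 4.83% and the D-box (TTANGTAA) in 2.24%. The cyclic AMP response element TGACGTCA, present in 1.83% of all windows, was in none of the windows of these genes. The match is a description of letters in these windows, and no binding was measured.

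Expression was measured by stranded mRNA sequencing and given as FPKM (fragments scaled to the length of the transcript and to the size of the library). Between 16672876 and 19109844 reads fell on genes in each library. The 10 clock genes passed the filter of a mean of 0.1 FPKM, as did 14542 genes in all. Changes are differences in log2(FPKM + 0.1), HG minus CON, which understate the change of low genes, and a gene was called at a limma adjusted p under 0.05. Marker genes of cardiomyocytes, endothelium, fibroblasts, smooth muscle, macrophages and erythroid cells were above 0 in every library. The labels name heart tissue, whereas a figure legend of the study names isolated cardiomyocytes. Endothelial Pecam1 was at 64.9 ± 2.49 FPKM (SD, n = 5) in the CON group and 62.2 ± 3.14 FPKM (SD, n = 5) in the HG group.

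Of the 10 clock genes, 5 were lower in the HG group (Clock, Npas2, Per2, Cry1 and Tef), and 0 were higher in the limma test. The 5 lower genes comprised both activators, 2 of the 6 repressors and 1 of the 2 outputs. At an unadjusted p under 0.05, 2 genes were higher in the same limma fit, Per3 and Nr1d2. The drop in mean FPKM was largest for Npas2, which fell by 41.2%, followed by Cry1, which fell by 22.9%, and Per2, which fell by 18.7%. Among all tested genes, 40.1% were called in either direction, 11.8% lower and 28.4% higher. The share of clock genes called in either direction was thus near that of all genes, although all 5 calls were lower. The median change of the 10 genes was -0.06 on the log2 scale, against 0.09 for all genes. No clock gene changed by over 2-fold, which 1.94% of all tested genes did with an adjusted p under 0.05. In bulk tissue, fewer cells of a type and less RNA per cell cannot be told apart.

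**Figure D1:**
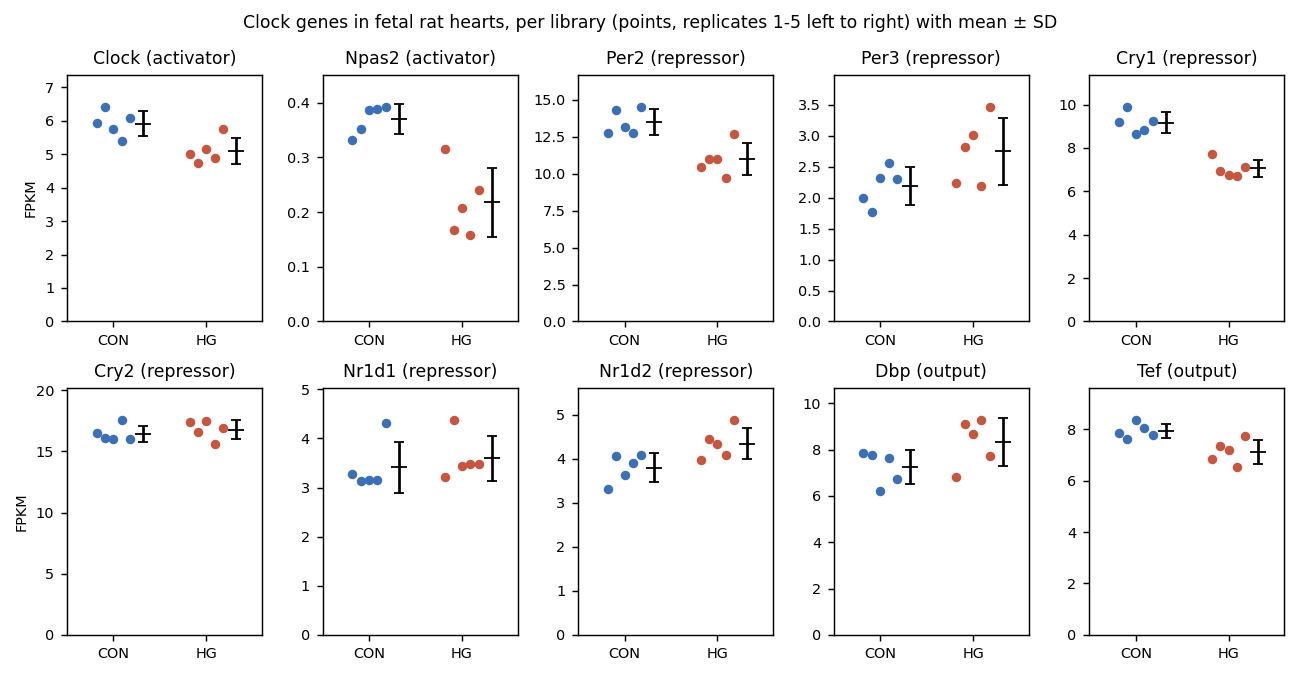
FPKM (vertical axes, each from 0) of the 10 clock genes in the 5 CON and 5 HG libraries (points), with the mean and SD of each group. The groups do not overlap for Npas2, Per2 and Cry1, which lie lower in the HG group, and overlap for the other genes. For Npas2, CON 1 and HG 1 held the same number of reads.

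Clock, the activator that also acetylates histones, was at 5.92, 6.41, 5.74, 5.40 and 6.08 FPKM in CON libraries 1 to 5, and at 4.99, 4.73, 5.16, 4.88 and 5.74 FPKM in HG libraries 1 to 5. The groups overlapped through HG 5, which lay at the level of CON 3. The mean was 5.91 ± 0.377 FPKM (SD, n = 5) in the CON group and 5.10 ± 0.389 FPKM (SD, n = 5) in the HG group, a change of -0.21 (SE 0.0678, limma adjusted p = 0.0267). Between 980 and 1330 reads supported each value. The call of Clock was lost when CON 1, CON 2, CON 5, HG 1, HG 2 or HG 4 was left out, with limma adjusted p values up to 0.0657 and a change of -0.18 without CON 2.

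Npas2, the paralog that can replace Clock as the partner of Bmal1, was the lowest of the 10 genes. Its level was 0.332, 0.352, 0.386, 0.389 and 0.393 FPKM in CON libraries 1 to 5, and 0.315, 0.167, 0.208, 0.159 and 0.240 FPKM in HG libraries 1 to 5. All HG libraries lay below all CON libraries, with HG 1 close to the CON group and HG 2 and HG 4 farthest from it. CON 1 and HG 1 held 45 reads each, so that their order in FPKM rests on library size alone. The mean fell from 0.370 ± 0.0271 FPKM to 0.218 ± 0.0633 FPKM (SD, n = 5 each), a change of -0.59 (SE 0.169, limma adjusted p = 0.0155). Only 21 to 53 reads lay behind each value, so that the size of this change is imprecise, and it depended on the pseudocount (-0.17 with 1 and -0.78 with 0.01 FPKM). The mean deviation of both activators from the CON mean ranged from -0.06 to 0.06 in CON libraries and from -0.56 to -0.21 in HG libraries.

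Among the repressors, Per2 encodes a PERIOD protein that carries the CRY proteins into the repressor complex. Per2 was at 12.8, 14.3, 13.2, 12.8 and 14.5 FPKM in CON libraries 1 to 5 and at 10.4, 11.0, 11.0, 9.74 and 12.7 FPKM in HG libraries 1 to 5. The groups did not overlap, but HG 5 lay directly below the lowest CON library. The mean was 13.5 ± 0.855 FPKM (SD, n = 5) in the CON group and 11.0 ± 1.09 FPKM (SD, n = 5) in the HG group, a change of -0.30 (SE 0.0693, limma adjusted p = 0.00469). This gene, whose window held both an E′-box and a D-box, was called under each of the 21 alternative settings.

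Per3, a paralog of Per2 that is dispensable for the rhythm itself in mice, was not called. It was at 2.00, 1.76, 2.32, 2.56 and 2.31 FPKM in CON libraries 1 to 5 and at 2.24, 2.82, 3.02, 2.20 and 3.47 FPKM in HG libraries 1 to 5. HG 1 and HG 4 lay within the CON range and the other HG libraries above it. The change was 0.31 (SE 0.137, limma adjusted p = 0.0956), and it passed the threshold only when HG 4 was left out (0.38, adjusted p = 0.0478).

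Cry1, the stronger of the CRYPTOCHROME repressors, showed the smallest adjusted p of the 10 genes. Its level was 9.18, 9.90, 8.63, 8.83 and 9.24 FPKM in CON libraries 1 to 5 and 7.73, 6.96, 6.74, 6.72 and 7.12 FPKM in HG libraries 1 to 5. All HG libraries were below all CON libraries. The mean fell from 9.16 ± 0.486 FPKM to 7.05 ± 0.412 FPKM (SD, n = 5 each), a change of -0.37 (SE 0.0564, limma adjusted p = 0.000316), and Cry1 was called under each of the 21 alternative settings. Its paralog Cry2 was at 16.5, 16.1, 16.0, 17.6 and 16.0 FPKM in CON libraries 1 to 5 and at 17.4, 16.6, 17.5, 15.6 and 16.9 FPKM in HG libraries 1 to 5. The Cry2 groups overlapped throughout, with a change of 0.03 (SE 0.0454, limma adjusted p = 0.622) that turned slightly negative under other scalings of the libraries.

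Nr1d1 and Nr1d2, nuclear receptors that bind heme and repress transcription, were not called. Nr1d1 was at 3.29, 3.13, 3.15, 3.15 and 4.32 FPKM in CON libraries 1 to 5 and at 3.21, 4.38, 3.43, 3.47 and 3.48 FPKM in HG libraries 1 to 5. A single library of each group, CON 5 and HG 2, stood above the rest. The change was 0.08 (SE 0.107, limma adjusted p = 0.600), with a sign that depended on the scaling. Nr1d1 overlaps Thra, the thyroid hormone receptor alpha gene, on the opposite strand in the RefSeq annotation. Thra was at 59.3 ± 3.06 FPKM in the CON group and 54.1 ± 3.45 FPKM in the HG group (SD, n = 5 each). The strand setting of the counting is not given in the sources used here, so that reads of Thra and of Nr1d1 may not have been separated. Clock, Npas2, Per2 and Cry2 overlap annotated antisense RNAs and share this limit. Cry1 overlaps the predicted gene LOC120093541, which was at 0.00282 FPKM on average in the CON group and listed at 0 in the HG group. Nr1d2 was at 3.32, 4.07, 3.63, 3.90 and 4.08 FPKM in CON libraries 1 to 5 and at 3.97, 4.44, 4.33, 4.09 and 4.88 FPKM in HG libraries 1 to 5. Of the HG libraries, HG 1 alone lay below the highest CON library, and the change was 0.19 (SE 0.0790, limma adjusted p = 0.0756). The mean deviation of the 6 repressors ranged from -0.07 to 0.10 in CON libraries and from -0.14 to 0.11 in HG libraries. This mean did not separate the groups, but opposite changes offset each other in it. Per2 (-0.30) and Cry1 (-0.37) were lower, whereas the changes of Per3 (0.31) and Nr1d2 (0.19) were positive and not called. Of the 5 repressors on the further clock list described below, 2 were lower (Per1 and Nfil3), 0 higher and 3 not called.

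Of the outputs, Tef was called and Dbp was not. Dbp, the PAR bZIP factor with the widest daily swing in many adult tissues, was at 7.87, 7.78, 6.21, 7.63 and 6.73 FPKM in CON libraries 1 to 5 and at 6.81, 9.12, 8.69, 9.28 and 7.71 FPKM in HG libraries 1 to 5. HG 2, HG 3 and HG 4 lay above all CON libraries and the other two within the CON range. Its change of 0.19 (SE 0.0949, limma adjusted p = 0.124) passed the threshold only without HG 1 (0.26, adjusted p = 0.0315). Tef, a related factor with a shallower rhythm, was at 7.85, 7.61, 8.36, 8.04 and 7.80 FPKM in CON libraries 1 to 5 and at 6.83, 7.36, 7.19, 6.55 and 7.75 FPKM in HG libraries 1 to 5. HG 5 lay within the CON range and the other HG libraries below it. The change was -0.15 (SE 0.0560, limma adjusted p = 0.0463), and the call was lost when any single library other than HG 5 was left out, with adjusted p values up to 0.107.

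**Figure D2:**
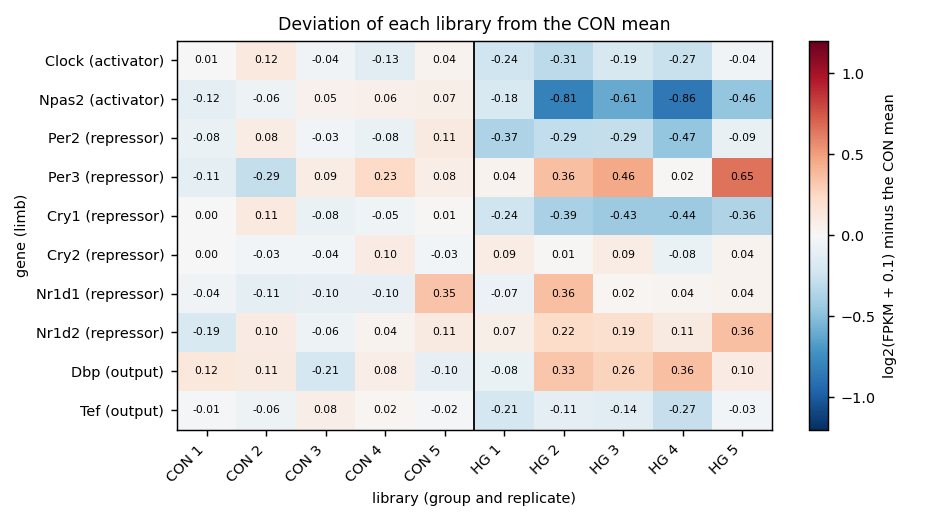
Difference of each library from the CON mean in log2(FPKM + 0.1), written in each cell and shown by colour (blue lower, red higher), for the 10 clock genes (rows, with their limb) in the 10 libraries (columns). Npas2 reaches -0.86 in HG 4 and Per3 0.65 in HG 5, while the Cry2 row stays between -0.08 and 0.10.

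Groups did not overlap for 3 of the 10 clock genes, all of them lower in the HG group, against 27.4% of all tested genes in either direction and 8.12% in that direction. One of them, Npas2, had equal reads in CON 1 and HG 1. Within the HG group, HG 4 held the lowest value of 6 of the 10 genes and HG 5 the highest of 5. Under the scaling as deposited, 70.7% of all called genes were higher in the HG group, a share that was 47.4% with median-of-ratios factors, 53.0% with quantile normalization and 49.5% with limma-voom on recovered reads. The same 5 clock genes were called lower under each of these 3 scalings, and 0 were called higher.

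**Figure D3:**
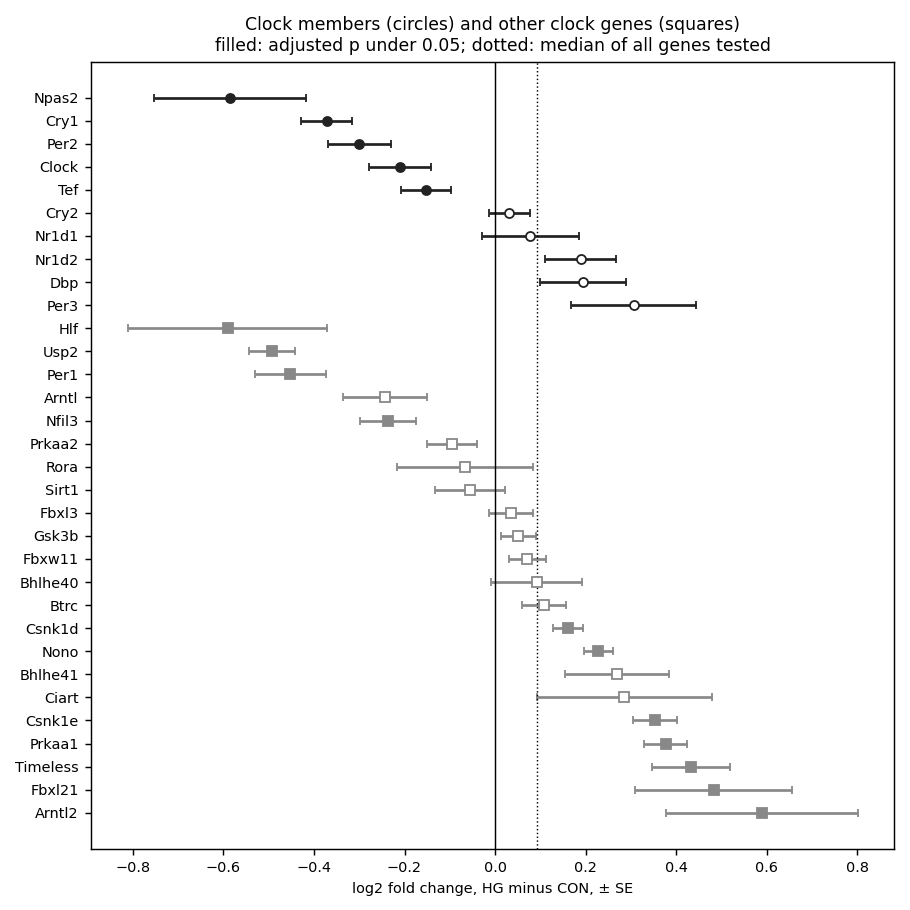
Change in log2(FPKM + 0.1), HG minus CON, with its SE (bars), filled where the limma adjusted p is under 0.05. Circles are the 10 clock genes and squares the tested genes of a list of further clock genes. The dotted line is the median of all tested genes. Of the 10 clock genes, the 5 called lie between -0.59 (Npas2) and -0.15 (Tef). The other 5 lie above 0, although Cry2 and Nr1d1 fall below 0 under other scalings.

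Ratios between paralogs within a library depend little on the scaling of that library where both genes lie well above the pseudocount of 0.1 FPKM, which Npas2 does not, and 5 pairs were tested by exact permutation of the library labels (two-sided), with p-values adjusted over the 5 pairs. The smallest p that 5 against 5 libraries allow is 0.00794. Per2 over Per3 fell from a mean log2 ratio of 2.58 ± 0.248 to 1.97 ± 0.154 (SD, n = 5 each), a difference of -0.61 (SE 0.131, exact p = 0.00794, adjusted p = 0.0198). The lowest CON ratio was 2.28, in CON 4, and the highest HG ratio 2.17, in HG 1, so that the groups did not overlap. Cry1 over Cry2 fell from -0.84 ± 0.109 to -1.24 ± 0.0737 (SD, n = 5 each), a difference of -0.40 (SE 0.0587, exact p = 0.00794, adjusted p = 0.0198). In linear terms, the ratio of mean FPKM went from 6.17 to 3.99 for Per2 over Per3 and from 0.557 to 0.420 for Cry1 over Cry2.

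The other pairs did not pass. Clock over Npas2 was 3.68 ± 0.149 in the CON group and 4.05 ± 0.252 in the HG group (SD, n = 5 each), a difference of 0.38 (SE 0.131, exact p = 0.0317, adjusted p = 0.0529). HG 1, at 3.62, lay within the CON range, and without it the difference was 0.48, with an adjusted p of 0.0265 in the exact test. With a pseudocount of 1 the difference was -0.0091 (adjusted p = 0.841, exact test), so that the direction of this ratio depended on the pseudocount. Dbp over Tef was -0.13 ± 0.187 in the CON group and 0.21 ± 0.217 in the HG group (SD, n = 5 each), a difference of 0.35 (SE 0.128, exact p = 0.0476, adjusted p = 0.0595). Nr1d1 over Nr1d2 differed by -0.11 (SE 0.113, exact p = 0.341).

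**Figure D4:**
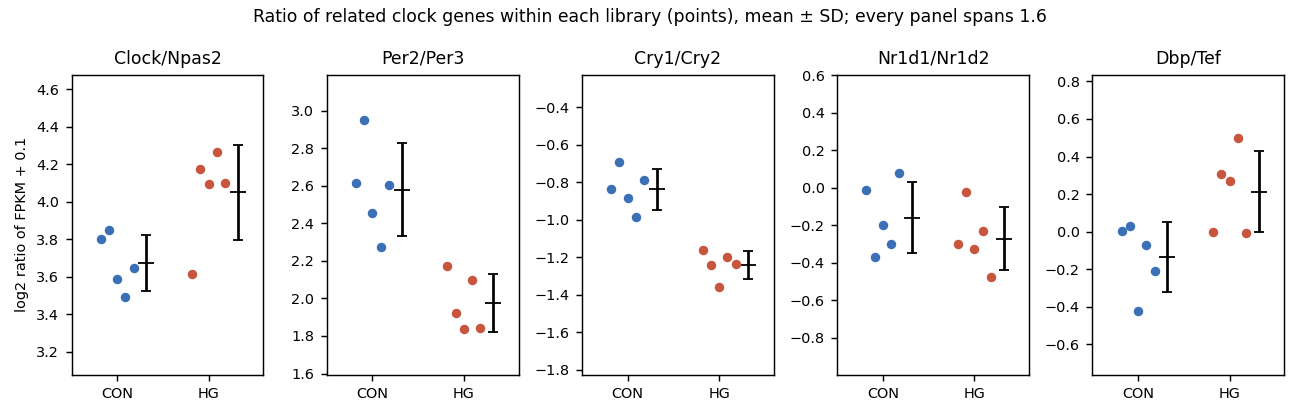
The log2 ratio of FPKM + 0.1 between 5 pairs of related clock genes in each library (points), with the mean and SD of the CON and HG groups. Every panel spans the same range on its vertical axis. Per2/Per3 and Cry1/Cry2 separate the groups, with lower ratios in the HG group.

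In FPKM, which compares genes per length, the order of levels in the CON group was Cry2, Per2, Cry1, Tef, Dbp, Clock, Nr1d2, Nr1d1, Per3 and Npas2. Neighbours whose ranges overlapped were Tef and Dbp, Dbp and Clock, and Nr1d2 and Nr1d1. In the HG group the order was Cry2, Per2, Dbp, Tef, Cry1, Clock, Nr1d2, Nr1d1, Per3 and Npas2, with Dbp ahead of Tef and both ahead of Cry1. Dbp and Tef, Tef and Cry1, Clock and Nr1d2, Nr1d2 and Nr1d1, and Nr1d1 and Per3 had overlapping ranges in the HG group. Cry2, at 16.4 ± 0.667 FPKM in the CON group and 16.8 ± 0.780 FPKM in the HG group (SD, n = 5 each), was the highest in both.

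The rest of the loop was read from a list of 24 further clock genes, of which 22 were tested and 11 called, 4 lower and 7 higher, beside 40.1% of all genes called, 11.8% lower and 28.4% higher. The other 2 were below the filter. This list was chosen with earlier results of these data known, so that its counts are given as a description. The median change of the list was 0.08. Bmal1 (listed as Arntl), the obligate partner of Clock and Npas2, was at 5.39, 4.25, 4.16, 4.19 and 4.22 FPKM in CON libraries 1 to 5 and at 3.39, 4.28, 3.38, 3.99 and 3.63 FPKM in HG libraries 1 to 5. CON 1 stood above all other libraries, and HG 2 lay within the CON range. Its change of -0.24 (SE 0.0924, limma adjusted p = 0.0529) did not pass the test. It passed without HG 2 (-0.29, adjusted p = 0.0275) and with median-of-ratios factors (-0.33, adjusted p = 0.0185). Bmal1 was also called lower with quantile normalization and with limma-voom, while without CON 1 its change was -0.17 (adjusted p = 0.122). Its paralog Arntl2 was higher by 0.59 (limma adjusted p = 0.0421), on 4 to 19 reads per library. That call was lost when any library other than CON 5 was left out (adjusted p up to 0.0920), with median-of-ratios factors, quantile normalization and limma-voom (adjusted p = 0.0746, 0.0853 and 0.0634) and with a pseudocount of 0.01, and the change ran from 0.14 with a pseudocount of 1 to 0.88 with 0.01.

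Per1, the remaining PERIOD gene, was lower in all HG libraries. Its FPKM ranged from 12.2 to 16.2 in the CON group and from 8.85 to 10.9 in the HG group, a change of -0.45 (SE 0.0786, limma adjusted p = 0.000789). Nfil3, the repressor that competes with Dbp and Tef for D-boxes, was lower by a log2 change of -0.24 (limma adjusted p = 0.00974). Hlf, the other PAR bZIP factor, changed by -0.59 (limma adjusted p = 0.0487), on 6 to 28 reads per library, and lost its call without CON 1, CON 2, CON 3, CON 5, HG 1, HG 2 or HG 3 (adjusted p up to 0.112). Its change was -0.12 with a pseudocount of 1 (adjusted p = 0.0670), -1.02 with 0.01 (adjusted p = 0.0537) and -1.16 with limma-voom (adjusted p = 0.0145). Usp2, a deubiquitinase that acts on PER and BMAL proteins and is itself clock-driven, ranged from 14.6 to 15.8 FPKM in the CON group and from 9.80 to 11.5 FPKM in the HG group, a change of -0.49 (limma adjusted p = 1.95e-05).

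Of the 13 modifiers on this list, which act on clock proteins, 6 were higher, 1 was lower (Usp2) and 6 were not called. The kinases of PER proteins, Csnk1e and Csnk1d, were higher by 0.35 and 0.16 (limma adjusted p = 0.000153 and 0.00207). Prkaa1, a catalytic subunit of AMP-activated kinase, which marks CRY for degradation, was higher by 0.38 (adjusted p = 7.90e-05), from 8.82 to 9.73 FPKM in the CON group to between 11.5 and 12.6 FPKM in the HG group. The other catalytic subunit, Prkaa2, was at 26.0 ± 1.22 FPKM in the CON group and 24.4 ± 1.92 FPKM in the HG group (SD, n = 5 each), a change of -0.10 (limma adjusted p = 0.198) that was called lower with median-of-ratios factors and with limma-voom. Fbxl21, a ubiquitin ligase subunit for CRY, was higher by 0.48 (adjusted p = 0.0427), Timeless by 0.43 (adjusted p = 0.00189) and Nono, a partner of PER proteins, by 0.23 (adjusted p = 0.000194). Timeless also acts at replication forks and Nono in splicing. The call of Fbxl21 was lost when any library other than CON 2 or CON 5 was left out (limma adjusted p up to 0.0877). The median change of all genes was 0.09, and the split of this list depended on the scaling. With median-of-ratios factors, 4 genes were higher (Csnk1e, Timeless, Nono and Prkaa1) and 6 lower, and quantile normalization gave 5 higher and 5 lower.

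Clock-controlled genes were read from a list of 17, of which 16 were tested and 13 called, 9 lower and 4 higher, with a median of -0.21, beside 40.1% of all genes called, 11.8% lower and 28.4% higher. With median-of-ratios factors, the same 9 were lower and 2 were higher. Kcnip2, a subunit of the transient outward potassium channel, had the smallest adjusted p and fell from 22.3 ± 9.22 FPKM to 2.88 ± 1.08 FPKM (SD, n = 5 each), a change of -2.88 (limma adjusted p = 1.40e-05). It was the only gene of this list to change by over 2-fold. Usp2, also on this list, was next, followed by Klf10, a Krüppel-like factor, which was higher by 0.60 (limma adjusted p = 7.44e-05). Several of these genes also answer to other signals, and Klf9, Tsc22d3, Pdk4 and Cdkn1a are on the list of glucocorticoid response genes as well, as is Per1 of the clock list. Of 12 glucocorticoid response genes, 8 were called lower and 1 higher, with a median of -0.34, beside the same shares of all genes. The clock-controlled and glucocorticoid lists were chosen with earlier results of these data known, so that their counts are given as a description. Zbtb16, a transcription factor strongly induced by glucocorticoids, changed by -1.70 (limma adjusted p = 8.33e-07) and Fkbp5, a chaperone of their receptor, by -0.43 (adjusted p = 7.87e-05). The gene called higher was Pdk4, a kinase that inhibits pyruvate dehydrogenase, at 9.20 ± 1.08 FPKM in the CON group and 14.1 ± 1.30 FPKM in the HG group (SD, n = 5 each), a change of 0.61 (limma adjusted p = 0.000166).

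Cell type markers were read beside the shares of all tested genes, of which 40.1% were called, 11.8% lower and 28.4% higher. Of 10 cardiomyocyte markers, 7 were called lower and 1 higher, and their summed FPKM ranged from 27573 to 29098 in the CON group and from 23618 to 27484 in the HG group. Of 4 smooth muscle markers, 3 were higher, with sums of 651 to 778 FPKM in the CON group and 888 to 1121 FPKM in the HG group. Of 9 erythroid markers, 6 were lower and 2 higher, with sums of 10029 to 18923 FPKM and of 7985 to 11262 FPKM. Of 7 fibroblast markers, 3 were lower and 2 higher (1690 to 1954 FPKM and 1533 to 1749 FPKM), of 7 endothelial markers 2 were higher (266 to 288 FPKM and 274 to 300 FPKM), and of 6 macrophage markers 3 were higher (28.3 to 35.1 FPKM and 33.0 to 43.4 FPKM). Their part in the changes of clock genes was not tested. With hemoglobin genes left out and the rest rescaled, the same 5 clock genes were called lower.

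**Figure D5:**
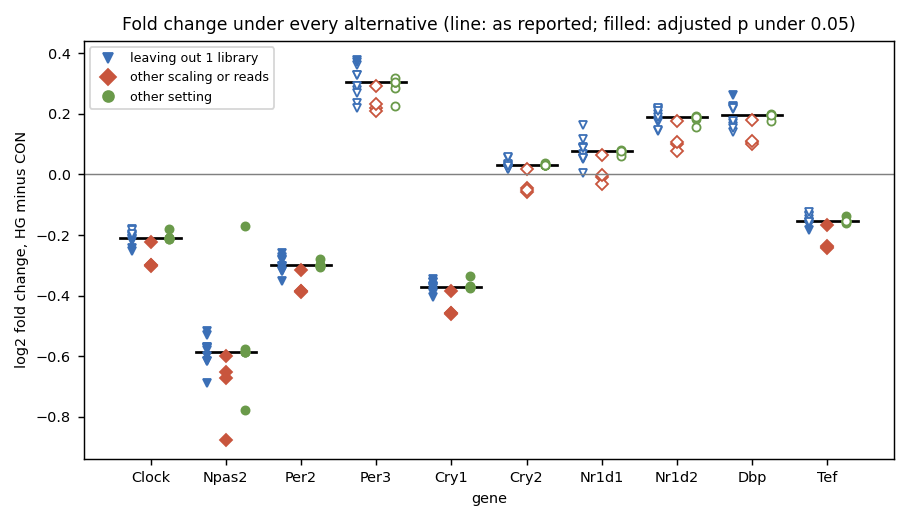
Change in log2 expression, HG minus CON, of each of the 10 clock genes as reported and under the 21 alternative settings, filled where the limma adjusted p is under 0.05. Npas2, Per2 and Cry1 stay filled wherever they were tested, whereas Clock and Tef lose the call when single libraries are left out.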

How the data were processed

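Messenger RNA of 5 CON and 5 HG fetal hearts was sequenced from TruSeq Stranded libraries of TRIzol-extracted RNA. The authors deposited FPKM values per gene, normalized by them to gene length and library size. The submitters' processing notes name fastp, HISAT2, HTSeq, R 3.2.0 and build mRatBN7.2. The annotation is not given in the sources used here.

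The test was limma 3.58.1 in R 4.3.3, with a trend on expression and no covariate, on log2(FPKM + 0.1) of genes whose mean reached 0.1 FPKM, with Benjamini-Hochberg adjustment over all 14542 genes. Reads were recovered from the steps between FPKM values and came out whole for 100% of genes (tolerance 0.02 reads), with 727 genes above 0 in 1 library taken as 1 read. Ratios of paralogs were compared with exact permutation tests in scipy 1.17.1. The genes and lists were chosen with earlier results of these data known. Named were the 10 clock genes and the called genes of the further clock list (and Bmal1 and Prkaa2, chosen after their values were seen). Up to 3 genes with the smallest adjusted p were named in the clock-controlled, immediate early and glucocorticoid lists. For Npas2, Per2 and Dbp, the 3 genes nearest in profile outside all lists were named. Pecam1 and Thra were named as checks. Alternatives changed the pseudocount (1 or 0.01), the filter (none or a mean of 1 FPKM), the scaling (quantile normalization, median-of-ratios factors, or hemoglobin genes removed) and the variance model (array weights, or no trend). Others blocked on the replicate number, applied limma-voom to recovered reads, or left out each library in turn, which made 21 alternative settings. A 2-fold threshold was added to the calls as a further rule and is not among these 21. Promoter windows came from RefSeq (GRCr8), another build than that of the expression values.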

Additional observations from a re-analysis of the deposited data

Results flagged for a closer look

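In 8 of the 88 groups of 5 libraries checked, a single library stood apart from the others by its gap over the range of the group, which chance gives in about 1 group in 20. Nr1d1 was at 4.32 FPKM in CON 5, with a gap of 0.867 of the range, and at 4.38 FPKM in HG 2, with a gap of 0.762. Arntl (Bmal1) was at 5.39 FPKM in CON 1, with a gap of 0.922. Prkaa1 was at 9.73 FPKM in CON 3 and at 12.6 FPKM in HG 3, each the highest of its group. Nfil3 was at 9.73 FPKM in HG 4, the lowest of the HG group. Fbxl21 was at 0.252 FPKM in CON 1, the lowest of the CON group. The log2 ratio of Clock over Npas2 was 3.62 in HG 1, the lowest of the HG group.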

How the results depend on the processing

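Without a 2-fold threshold, Npas2, Per2 and Cry1 were called lower under each alternative fit in which they were tested. Npas2 was below the filter at a mean of 1 FPKM. Between 3 and 5 clock genes were called when single libraries were left out, with 3 called without CON 1, CON 2, CON 5 or HG 2, and 4 with no filter (without Tef) or at a mean of 1 FPKM (without Npas2). Left-out libraries gave 5059 to 5620 called genes in all, 8 to 10 of the further clock list and 10 to 13 of the clock-controlled list. With a 2-fold threshold added, 0 clock genes, 282 genes in all, 0 of the further list and 1 of the clock-controlled list were called. Cry2 turned to -0.058 with median-of-ratios factors, -0.044 with quantile normalization and -0.052 with limma-voom, and Nr1d1 to -0.0098, -0.033 and -0.0019. Clock over Npas2 turned to -0.0091 with a pseudocount of 1, was 0.57 with 0.01 (adjusted p = 0.0397, exact permutation test) and ranged from 0.32 to 0.48 over left-out libraries. The ranges over left-out libraries were -0.68 to -0.51 for Per2 over Per3, -0.44 to -0.37 for Cry1 over Cry2, -0.17 to -0.05 for Nr1d1 over Nr1d2 and 0.27 to 0.40 for Dbp over Tef. Libraries of the same replicate number did not deviate together (correlations of -0.126 to 0.108). Whether the numbers mark pairs is not given in the sources used here. With the replicate block, 4 clock genes (without Tef) and 5096 genes in all were called. With such pairing, Per2 over Per3 (-0.61) and Cry1 over Cry2 (-0.40) had adjusted p = 0.156 in an exact sign-flip test whose smallest p is 0.0625. Genes with few reads, Npas2, Arntl2 and Hlf among them, are limited by depth. Other causes of these shifts were not tested.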

Other observations

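Immediate early genes, which respond within minutes to serum, stress or handling of tissue, were read for comparison with Per1 and Per2, themselves inducible. Of 10 such genes, 1 was called (40.1% of all genes were), Ier2, which was higher by 0.26 (limma adjusted p = 0.00709), a call lost with median-of-ratios factors (adjusted p = 0.0733) and with limma-voom (adjusted p = 0.0595). Fos was at 2.59 ± 1.12 FPKM in the CON group and 1.58 ± 0.177 FPKM in the HG group (SD, n = 5 each), with a difference of -0.58 (limma adjusted p = 0.0791), and the difference of Egr2 was 0.40 (adjusted p = 0.240), or 0.21 without HG 1. Over left-out libraries the difference of Fos ran from -0.80 without CON 2 (limma adjusted p = 0.00529) to -0.38 without CON 5 (adjusted p = 0.175).

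Profiles over the 10 libraries were compared by the mean absolute difference of mean-centred log2 values. Ranks of clock genes were taken among all tested genes, those of every list included. Of the listed genes, only the nearest of the 10 clock genes is given. The 3 nearest genes were sought outside all gene lists. For Npas2 they were Nit2 (0.0983), Nacc2 (0.105) and Art4 (0.112), and the nearest of the 10 clock genes was Cry1 (0.157, rank 85). For Per2 they were Oxsm (0.0490), Dop1b (0.0536) and Trak2 (0.0563), and the nearest of the 10 clock genes was Clock (0.0656, rank 17). For Dbp they were Cnrip1 (0.0531), Hey2 (0.0617) and Tstd3 (0.0624), and the nearest of the 10 clock genes, Nr1d2 (0.156), stood at rank 3807. The libraries share their depth and group differences, and these distances are given as a description.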
